A study of Petromyzon marinus with 2 samples.

Results

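Genes with names of the synaptic vesicle release machinery were examined in neurons and glia of the adult sea lamprey (Petromyzon marinus) retina. A gene was taken when its name in the deposited list began with SYT, SYN, SV2, SNAP, STX, VAMP, STXBP, CPLX, RIMS, UNC13, RAB3, NSF, BSN, PCLO or ERC, followed by a digit or by nothing, with SYN limited to SYN1 to SYN3. At least 100 cell barcodes also had to hold a transcript of the gene. This rule took 13 of 24979 genes. All 13 genes with such a name passed the minimum, so none lay just outside it, and the lowest were STX11 with 295 barcodes and SNAP47 with 604.

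Neurotransmitter is released when a synaptic vesicle fuses with the presynaptic membrane. SNARE proteins on the vesicle (VAMP) and on the target membrane (syntaxins and SNAP proteins) zip together to drive fusion, synaptotagmins sense calcium, complexins and syntaxin-binding proteins regulate the SNARE complex, and large scaffolds such as piccolo organise the active zone. Retinal photoreceptors and bipolar cells release glutamate at ribbon synapses, whereas amacrine cells use conventional synapses. Related SNAREs carry membrane between the Golgi, endosomes, lysosomes and autophagosomes in every cell.

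By the roles known from mammals, the 13 genes are a mixture of these. PCLO (piccolo) and SYT7 belong to presynaptic release, while STX5, STX8, STX12, STX17 and VAMP7 are SNAREs of the Golgi, endosomes, autophagosomes and lysosomes. RAB30 and RAB35 match the RAB3 prefix by letters only and are other small GTPases. The gene set is therefore described below by role and not as a presynaptic set. Genes of the prefixes SYN, SV2, CPLX, RIMS, UNC13, NSF, BSN and ERC were not analysed here under those names. Most lamprey genes are listed under assembly numbers, and the rule leaves out names with a letter right after the prefix, such as SV2A. Another 6 genes (CPLX1, CPLX3, CPLX4, ERC1, STXBP6 and SYT16) are listed by number and carry a matching name only in the study's renaming table or in RefSeq. They are given as relatives beside the 13 and were added with their values known.

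Retinas of adult, post-metamorphic and sexually mature animals were dissociated with papain, and the transcripts of single cells were captured in droplets. There were 2 biological replicates, with no treatment and no other group. The sample labels add a sorting step by flow cytometry without naming a gate, and the number of animals behind each library is not given in the sources used here. Replicate 1 held 12933 barcodes and 87882951 UMIs (unique molecular identifiers, each marking 1 captured transcript), and replicate 2 held 15958 barcodes and 117426390 UMIs. The libraries had 83 barcode sequences in common.

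Neurons and glia were gated by marker UMIs. Neurons had at least 2 UMIs of at least 1 of RCVRN (recoverin of photoreceptors), SLC5A7 (choline transporter), SLC6A5 (glycine transporter), SLC17A6 (vesicular glutamate transporter), SLC32A1 (vesicular GABA and glycine transporter) and GAD1 (GABA synthesis), with fewer than 5 UMIs of GLUL and 0 of HES1. Glia had at least 5 UMIs of GLUL (glutamine synthetase of Müller glia), at least 1 of HES1 (a Notch target) and at most 1 UMI over the 6 neuronal genes. Of the barcodes kept, 8338 and 10711 were neurons in replicates 1 and 2, with medians of 7193.5 and 6909 UMIs. Only 64 and 253 were glia, with higher medians of 18330 and 13174 UMIs, and 4501 and 4972 were in neither gate. The glial sums hold 1203692 and 3393691 UMIs, so a level of 1 CPM (UMI counts scaled to a sum of 1000000) there is about 1 to 3 transcripts.

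Genes kept out of the gates were used to check them. ELAVL4, an RNA-binding protein of neurons, had 1247 and 1199 CPM in neurons and 31.6 and 46.3 CPM in glia. NSG1, a neuronal endosomal protein, was less separated, at 294 and 233 CPM against 130 and 137 CPM, with a fitted log2 fold change of 0.81, under 2-fold. The glial genes kept out, AQP4 and KCNJ10, were at most 1.66 CPM in either gate and did not test the glial gate. The named markers of blood and vessel (VWF and TAL1) and of pigment epithelium (TYR, PMEL, RPE65, TYRP1 and DCT) were at or under 7.66 CPM in each gate and library.

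Of the 13 genes, SYT7, PCLO and SYT13 were higher in neurons and RAB30 and STX5 were higher in glia. Genes passed in the edgeR quasi-likelihood test when they differed 2-fold or more with a Benjamini-Hochberg adjusted p below 0.05 over 16735 genes. The 3 higher and 2 lower calls stand against 20.5% of all genes called higher in neurons and 16% called lower, so the count of calls in the set is near the background. The median log2 fold change of neurons over glia was 0.70 over the 13 genes and 0.22 over all genes tested. At an unadjusted p under 0.05 there were 9 of 13, beside 55.1% of all genes. With only 4 sums in that fit, the spread was shared over all genes and its p-values are very small. Its standard errors (SE) rest on the same shared spread and do not measure how far a single gene varied between the libraries. Each call is therefore followed by its adjusted p in the fit of all neuron classes and glia. That fit made the same 3 higher and 2 lower calls, beside 20.9% and 18.8% of its genes. It uses the same 2 libraries and the same glial sums, so its calls are not independent support.

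The calcium sensors held the widest separation. SYT7, a high-affinity synaptotagmin linked to slow and asynchronous release, had 502 and 492 CPM in the neurons of replicates 1 and 2 and 4.98 and 3.54 CPM in glia. Neurons and glia were far apart in both libraries, with a log2 fold change of 6.80 ± 0.31 (SE; adjusted p = 3.62e-101, and 6.78e-11 in the fit of all classes). A UMI of SYT7 was seen in 62.6% of neurons (95% exact Clopper-Pearson interval 61.9 to 63.3) and in 5.36% of glia (3.15 to 8.45), although the glial barcodes were deeper. With each barcode of at least 1000 UMIs thinned to 1000 and the others left out, the shares were 27.9% and 0.315%. All such intervals cover counting error only.

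SYT13, an atypical synaptotagmin without the calcium-binding residues, was present at 47.9 and 55.3 CPM in neurons. Glia held 1 UMI in replicate 1 and 11 UMIs in replicate 2. The ratio of neurons to glia was 57.6 in replicate 1 (95% counting interval 10.3 to 2277) and 17.1 in replicate 2 (9.53 to 34.2). The log2 fold change was 4.24 ± 0.33 (adjusted p = 5.46e-36, and 6.27e-06 in the fit of all classes), and it was 5.68 without replicate 2 and 3.96 without replicate 1. The direction was the same in both libraries, but its size rests on few glial transcripts. SYT16, a calcium-independent relative, was at 63.8 and 58.7 CPM in neurons against 2 and 39 UMIs (1.66 and 11.5 CPM) in glia, with a log2 fold change of 2.75 ± 0.26 that was 5.14 without replicate 2.

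PCLO, the active zone scaffold piccolo, had 568 and 475 CPM in neurons and 6.65 and 7.96 CPM in glia. The gates did not overlap, and the log2 fold change was 5.92 ± 0.29 (adjusted p = 1.08e-91, and 8.42e-11 in the fit of all classes). Its UMIs were in 82.4% of neurons (81.8 to 82.9) and 8.20% of glia (5.43 to 11.8). ERC1, a relative that binds RIM proteins at the active zone, had 191 and 174 CPM in neurons and 27.4 and 22.7 CPM in glia, a smaller log2 fold change of 2.73 ± 0.22.

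Free RNA in droplets can give low levels of neuronal genes in other cells, and its amount was not measured here. In glia, ELAVL4 was at 2.53% and 3.86% of its level in neurons, and NSG1 at 44.4% and 58.8%, so these 2 genes give unlike references. The corresponding values were 0.993% and 0.719% for SYT7, 1.17% and 1.67% for PCLO, and 1.74% and 5.86% for SYT13. SYT7 and PCLO in glia were thus below ELAVL4 in the same libraries, and the source of their glial UMIs was not tested. ERC1, at 14.3% and 13.1%, lay between ELAVL4 and NSG1.

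**Figure D1:**
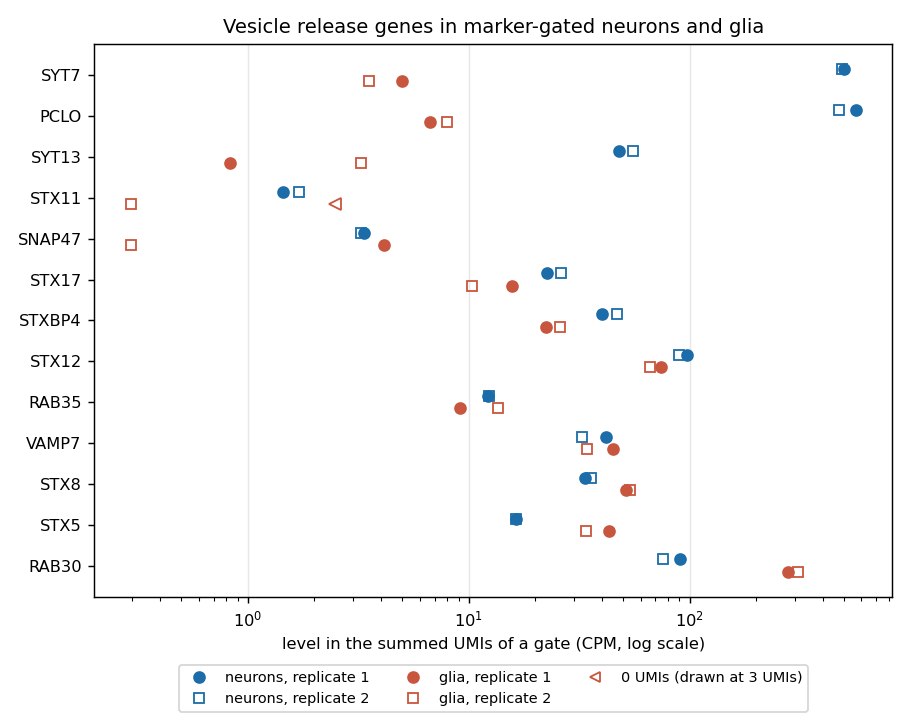
Level of each of the 13 genes (rows) in the summed UMIs of gated neurons (blue) and gated glia (red), in CPM on a log scale, with filled circles for replicate 1 and open squares for replicate 2. SYT7 and PCLO are near 500 CPM in neurons and under 8 CPM in glia, RAB30 is higher in glia, and most other genes have neighbouring levels in both gates. The triangle is the glia of replicate 1 for STX11, with 0 UMIs, drawn at the level of 3 UMIs.

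The target SNAREs of the list showed smaller differences, and the gene called among them was higher in glia. STX5, the syntaxin of transport between the endoplasmic reticulum and the Golgi, had 16.4 and 16.4 CPM in neurons and 43.2 and 33.9 CPM in glia. Its log2 fold change of neurons over glia was -1.35 ± 0.22 (adjusted p = 6.69e-09, and 4.97e-06 in the fit of all classes). After thinning to 1000 UMIs, however, the value was -0.29 and STX5 no longer passed, with an adjusted p of 0.823. The thinned glial sums held only 64000 and 253000 UMIs, so thinned values of genes at such levels rest on few glial transcripts.

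STX12, the syntaxin of recycling endosomes, had 97.7 and 89.6 CPM in neurons and 73.9 and 66.3 CPM in glia. Its log2 fold change of 0.27 ± 0.19 did not pass (adjusted p = 0.232), though it was 1.26 and passed after thinning. STX8, an endosomal syntaxin, had 33.5 and 35.7 CPM in neurons and 51.5 and 53.6 CPM in glia. The 2 libraries of each gate did not overlap, but the log2 fold change of -0.75 ± 0.20 (adjusted p = 0.000421) stayed under 2-fold, and it was 0.25 after thinning.

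STX17, the syntaxin of autophagosomes, had a log2 fold change of 0.86 (adjusted p = 0.00351), again under 2-fold. It reached 2-fold and passed in a glial gate without the HES1 condition (1.01) and in a glial gate with 0 neuronal UMIs (1.05). It also passed after thinning (2.32), where the glial sums were small. STX11, a syntaxin of granule release in mammalian lymphocytes, was barely detected. Its neurons held 105 and 153 UMIs, and its glia held 0 and 1. The log2 fold change of 2.75 ± 1.35 was the largest of the target SNAREs and did not pass (adjusted p = 0.0770). In replicate 1 the 0 UMIs of glia allow up to 2.49 CPM, which is above the level of STX11 in neurons, so no difference was detectable in that library. In replicate 2 the ratio of neurons to glia was 5.77, with a counting interval of 1.02 to 229. SNAP47, a relative of SNAP25 that lacks its membrane anchor, held 5 and 1 UMIs in glia, and its log2 fold change was 1.03 ± 0.71 (adjusted p = 0.230). It was -0.39 without replicate 2 and 3.18 without replicate 1, so the libraries did not share a direction.

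The vesicle SNARE VAMP7, which acts in late endosomes and lysosomes, had 41.6 and 32.6 CPM in neurons and 44.9 and 34.5 CPM in glia. The gates overlapped, and the log2 fold change of -0.24 ± 0.20 did not pass (adjusted p = 0.337). It changed sign after thinning (0.64). STXBP4, known in mammalian fat cells as a binding partner of syntaxin 4, was at 40.0 and 47.0 CPM in neurons and 22.4 and 25.9 CPM in glia. Its log2 fold change of 0.70 (adjusted p = 0.00372) was under 2-fold, although the gates did not overlap. In SLC5A7 neurons, a class described below, STXBP4 was at 15.5 and 20.6 CPM, under the glial level in both libraries.

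Of the relatives that regulate SNAREs, CPLX1 and STXBP6 were far higher in neurons in both libraries. CPLX3 and CPLX4 were higher in the neuron sum, but their mean levels in most neuron classes below were under those of glia. This order of means was not shared by both libraries in every class. CPLX1, a complexin that binds the assembled SNARE complex, had 4696 and 4200 CPM in neurons and 128 and 215 CPM in glia, a log2 fold change of 4.57 ± 0.32. STXBP6 (amisyn), which competes for the SNARE complex in mammals, had 174 and 178 CPM against 7.48 and 6.48 CPM, a log2 fold change of 4.54 ± 0.26. CPLX3 and CPLX4, complexins of ribbon synapses in mammals, had log2 fold changes of 2.59 and 2.97 from low levels. CPLX3 was at 8.80 and 21.2 CPM in neurons and 1.66 and 2.95 CPM in glia. CPLX4 was at 9.16 and 25.6 CPM in neurons and 4.15 and 1.47 CPM in glia. Both lost the call when glia were set against the mean of the neuron classes (0.56 and 0.77), and CPLX4 was 1.05 without replicate 2 and 3.96 without replicate 1. The 6 relatives passed as higher in neurons in this fit and 4 of them in the fit of all classes, and since they were chosen with their values known the counts are a description only.

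The small GTPase RAB30, a Golgi protein, was the gene most displaced towards glia. It had 90.4 and 76.2 CPM in neurons and 280 and 310 CPM in glia. These levels were 3.10 and 4.07 times higher in glia, without overlap, and the log2 fold change was -1.98 ± 0.20 (adjusted p = 2.51e-22, and 5.17e-09 in the fit of all classes). A UMI of RAB30 was in 96.8% of glia (94.3 to 98.5) and 39.7% of neurons (39.0 to 40.4). After thinning to 1000 UMIs the shares were 25.2% and 8.24%, and RAB30 still passed with a log2 fold change of -1.54. RAB35, of endosomal recycling, had 12.2 and 12.4 CPM in neurons and 9.14 and 13.6 CPM in glia. Its groups overlapped, and the log2 fold change of -0.10 (adjusted p = 0.806) changed sign without replicate 2 (0.33).

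**Figure D2:**
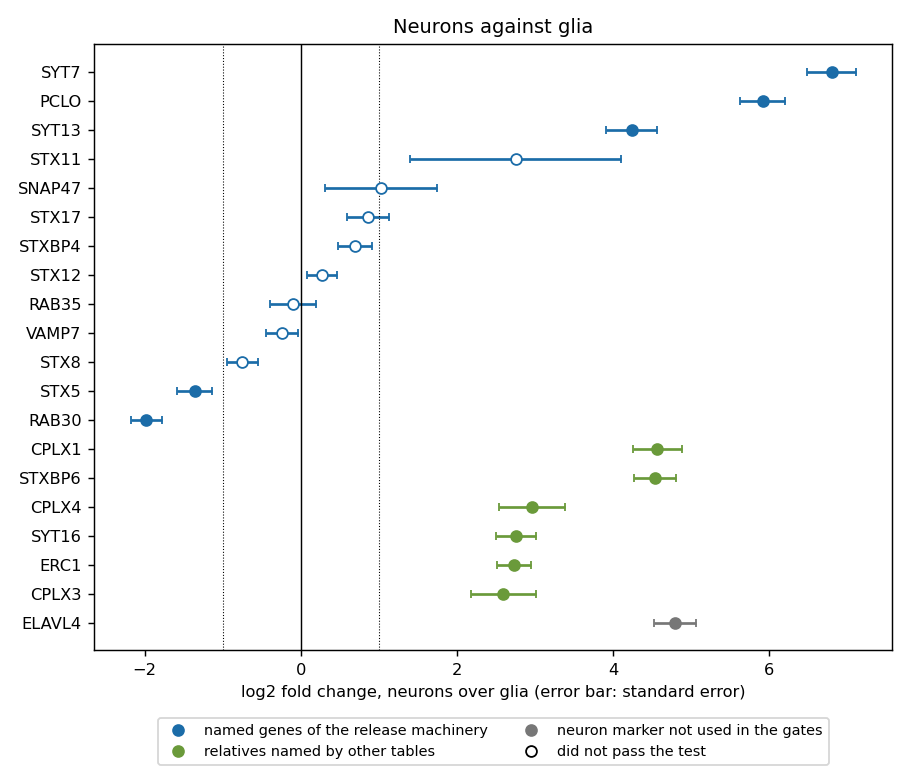
Log2 fold change of neurons over glia (x axis) for the 13 genes (blue), the 6 relatives named by other tables (green) and ELAVL4, a neuronal gene kept out of the gates (grey). Bars are standard errors from a spread shared over all genes, and do not show how far a gene varied between the libraries. Filled points passed the test, open points did not, and dotted lines mark 2-fold. SYT7 (6.80), PCLO (5.92) and SYT13 (4.24) stand at one end and RAB30 (-1.98) at the other.

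Other genes of vesicle release were read from a separate list of names, of which 14 were found. In this list 7 passed as higher in neurons and 0 as lower, beside 20.5% and 16% of all genes, and its median log2 fold change was 1.06, beside 0.22 over all genes. The largest values were those of BIN1 (amphiphysin 2, which bends membranes) at 5.53, DNM1 (dynamin 1, which cuts endocytic vesicles free) at 3.84 and SYNJ1 (synaptojanin 1, which helps to uncoat them) at 2.51. BIN1 had 56.5 and 54.8 CPM in neurons and 0 and 5 UMIs in glia. The smallest values were those of RAB27A (granule docking) at -0.22, RAB3GAP2 (a subunit of the RAB3 GTPase-activating complex) at 0.24 and PICALM (a clathrin adaptor) at 0.37, and these did not pass.

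The neurons were then divided by transmitter genes into classes, each compared with the mean of the other classes over 15253 genes. Classes had at least 2 UMIs of exactly 1 of RCVRN, SLC5A7, SLC6A5 and SLC17A6. Barcodes with none of these at 2 UMIs were classed by SLC32A1, or by GAD1 without SLC32A1, at the same minimum. A barcode with at least 2 UMIs of both RCVRN and SLC17A6 was thus in no class. Replicates 1 and 2 held 661 and 825 barcodes of the SLC5A7 class, 1164 and 1112 of SLC6A5, 288 and 564 of SLC17A6, 1468 and 1769 of SLC32A1 and 4157 and 5670 of GAD1. The RCVRN class held 3 and 8 barcodes and was not tested. The classes are named by their gene, since several retinal cell types can share a transmitter, and 1360 neurons belonged to none. In this fit each gene had a single spread, shared by all classes and glia. Its p-values and standard errors therefore do not give the spread of a single class between the libraries.

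Differences between neuron classes were concentrated in PCLO, SYT7, SYT13 and STXBP4. In the SLC5A7 class 2 genes of the 13 were higher and 2 lower, beside 5.99% and 7.7% of all genes. In the SLC17A6 class 1 was higher and 1 lower, beside 8.88% and 5.8%. The SLC32A1 class had 0 higher and 1 lower, beside 3.66% and 2.91%. In the GAD1 class 0 passed, beside 5.33% and 2.7% of all genes, and in the SLC6A5 class 0 passed, beside 3.26% and 3.66%. At an unadjusted p under 0.05 in edgeR these classes had 3 and 2 of the 13, beside 30.5% and 37.8% of all genes. DESeq2 also called 0 in these classes. The log2 fold changes that did not pass lay between -1.31 and 0.82, and the median over the 13 genes was within 0.15 of 0 in each class.

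PCLO varied most between the SLC5A7 and SLC17A6 classes. It had 1036 and 952 CPM in SLC5A7 neurons, 255 and 187 CPM in SLC17A6 neurons and 439 to 527 CPM in the other classes. SLC5A7 was highest and SLC17A6 lowest in both libraries, and SLC6A5, SLC32A1 and GAD1 overlapped in the middle. Against the mean of the other classes, PCLO was higher in SLC5A7 neurons by a log2 fold change of 1.47 ± 0.07 (adjusted p = 3.90e-08) and lower in SLC17A6 neurons at -1.35 ± 0.09 (adjusted p = 4.53e-07). The lower value did not reach 2-fold with a gate of 1 UMI (-0.90). Thinned to 1000 UMIs, 63.3% and 60.1% of SLC5A7 neurons held a UMI of PCLO, against 16.9% and 13.0% of SLC17A6 neurons.

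The synaptotagmins moved in opposite directions in SLC5A7 neurons. SYT7 was at 198 and 209 CPM there and at 403 to 566 CPM in every other class, a log2 fold change of -1.15 ± 0.08 (adjusted p = 1.06e-06). With a gate of 1 UMI this was -0.76 and under 2-fold. SYT13 was at 110 and 121 CPM in SLC5A7 neurons and at 19.9 to 62.0 CPM in the others, a log2 fold change of 1.64 ± 0.14 (adjusted p = 3.78e-06). SYT13 was lowest in SLC32A1 neurons, at 19.9 and 38.7 CPM, but these overlapped with SLC6A5 neurons at 26.0 and 43.2 CPM. The call in SLC32A1 neurons (-1.09 ± 0.17, adjusted p = 0.000814) rested on replicate 1, since the value was -0.78 without it. SYT16 was at 331 and 339 CPM in SLC5A7 neurons and at 16.3 to 32.9 CPM elsewhere, the widest class difference among the synaptotagmins (3.80 ± 0.12, adjusted p = 1.15e-09).

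STXBP4 was highest in SLC17A6 neurons, with 104 and 167 CPM, and lowest in SLC5A7 neurons, with 15.5 and 20.6 CPM. The other classes lay between 33.2 and 45.5 CPM, and no class at either end overlapped with them. The log2 fold changes were 2.13 ± 0.11 in SLC17A6 neurons (adjusted p = 7.07e-08) and -1.42 ± 0.15 in SLC5A7 neurons (adjusted p = 2.46e-05). RAB30 had its highest level in SLC32A1 neurons, at 135 and 113 CPM, and its lowest in SLC5A7 neurons, at 48.8 and 42.0 CPM, but neither reached 2-fold (0.81 and -0.77).

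The complexins divided the classes more sharply. CPLX3 was at 124 and 232 CPM and CPLX4 at 129 and 284 CPM in SLC17A6 neurons, and neither passed 2.27 CPM in any other class. Means over both libraries in the other classes were 0.97 to 1.99 CPM for CPLX3 and 1.28 to 1.59 CPM for CPLX4. These were under the glial means of 2.30 and 2.81 CPM, which rest on 12 and 10 glial UMIs. Single libraries did not all share this order. Glia had CPLX3 at 1.66 CPM in replicate 1 and CPLX4 at 1.47 CPM in replicate 2, under the highest of these class means. The log2 fold changes of CPLX3 and CPLX4 in SLC17A6 neurons were 6.88 ± 0.13 (adjusted p = 1.88e-11) and 7.22 ± 0.19 (adjusted p = 1.86e-10). They were 6.20 and 6.40 without replicate 2, shifts larger than these standard errors. Because the mean of the other classes includes SLC17A6 neurons, both genes were also called lower in the remaining classes, where they were near 1 CPM, and 6 of these 8 lower calls were lost after thinning. CPLX1 was lowest in SLC5A7 neurons, at 1566 and 1781 CPM against 2978 to 5534 CPM elsewhere, with a log2 fold change of -1.28 ± 0.16 (adjusted p = 8.54e-05). STXBP6 was highest in GAD1 neurons, at 255 and 255 CPM against 35.0 to 97.5 CPM, with a log2 fold change of 2.0 ± 0.09 (adjusted p = 1.13e-07).

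In the list of other release genes, APBA1 (a Munc18-binding adaptor) and RAB27A were higher in SLC5A7 neurons, with log2 fold changes of 1.49 and 2.22. CADPS, which primes dense-core vesicles, was higher in SLC17A6 neurons (1.85) and lower in SLC6A5 neurons (-1.53). OTOF, the calcium sensor of hair cell ribbon synapses, was higher in SLC6A5 neurons (1.08) from levels of 12.1 and 6.06 CPM, and RAB27A was lower in GAD1 neurons (-1.80). The other 10 genes of the list passed in no class.

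**Figure D3:**
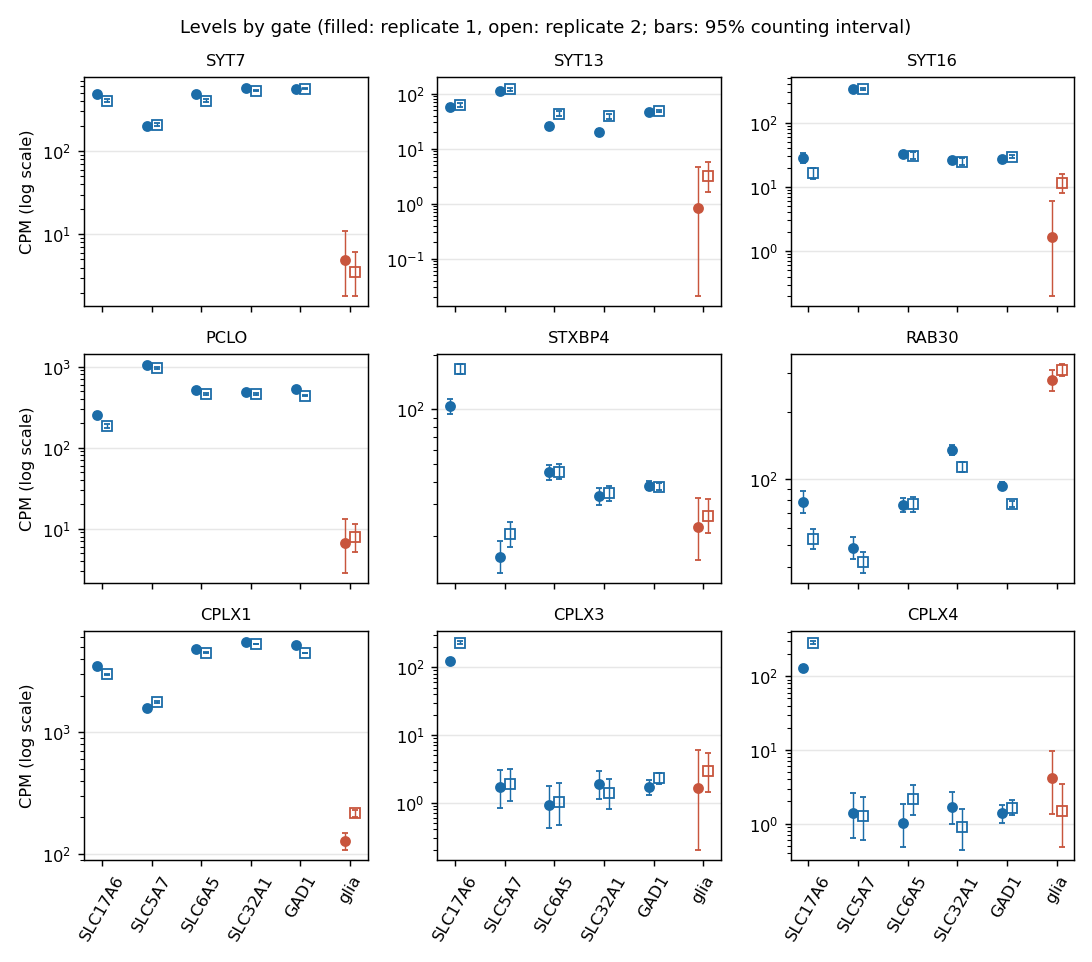
Levels of 5 genes of the set (SYT7, SYT13, PCLO, STXBP4 and RAB30) and 4 relatives (SYT16, CPLX1, CPLX3 and CPLX4) in 5 neuron classes (blue) and glia (red), in CPM on a log scale that differs between panels. Filled circles are replicate 1, open squares replicate 2, and bars are 95% counting intervals. SLC5A7 neurons stand apart for PCLO, SYT13 and SYT16 (higher) and SYT7, STXBP4 and CPLX1 (lower), and SLC17A6 neurons for STXBP4, CPLX3 and CPLX4 (higher).

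SLC17A6 neurons were not uniform in these genes. They were divided by CPLX3 and CPLX4, a division made with the values known, so its levels are a description without a test. In replicates 1 and 2, 133 and 375 barcodes had at least 2 UMIs of the pair (medians of 9311 and 8690 UMIs) and 136 and 156 had 0 (medians of 15027 and 16743 UMIs). The remaining 19 and 33 barcodes had 1 UMI.

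STXBP4 was at 236 and 289 CPM with CPLX3 and CPLX4 and at 33.2 and 32.8 CPM without them, a ratio of 7.11 and 8.82. The SLC17A6 neurons without the pair thus had STXBP4 levels like those of the other classes. CPLX1 went the other way, at 659 and 865 CPM with the pair and 5107 and 5268 CPM without. Barcodes with the pair were thus under SLC5A7 neurons, the class of lowest CPLX1, at 1566 and 1781 CPM. PCLO was also lower with the pair, at 99.0 and 91.3 CPM against 365 and 290 CPM, and so was STX12, at 70.7 and 69.0 CPM against 118 and 138 CPM. SYT7 levels overlapped, at 531 and 397 CPM against 478 and 407 CPM, as did those of STX8. SYT13 was at 69.9 and 61.1 CPM with the pair and 52.9 and 60.9 CPM without, nearly level in replicate 2.

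Genes of other classes moved with this division. The photoreceptor genes CNGB1 (a cyclic nucleotide-gated channel subunit), CDHR1 and RBP3 were at 139 and 124 CPM, 37.9 and 17.5 CPM, and 18.6 and 11.6 CPM with the pair. Without it they were at most 3.14 CPM. CNGA3, the other named photoreceptor gene, was at most 4.35 CPM in both. ELAVL4 was at 178 and 207 CPM with the pair and 1503 and 1387 CPM without, and NSG1 at 40.2 and 39.9 CPM against 790 and 921 CPM. The part of these cell differences in the class results for STXBP4, PCLO and CPLX1 was not tested.

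**Figure D4:**
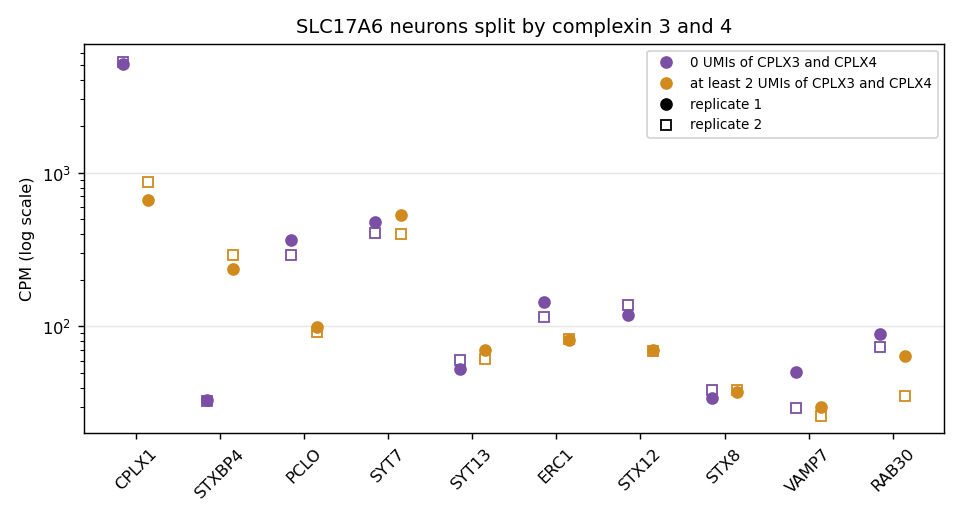
Levels in SLC17A6 neurons with 0 UMIs of CPLX3 and CPLX4 (purple) and with at least 2 (orange), in CPM on a log scale, with filled circles for replicate 1 and open squares for replicate 2. STXBP4 is higher and CPLX1 and PCLO are lower in the barcodes with the complexins, while SYT7 overlaps.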

How the data were processed

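The authors deposited whole-number counts of UMIs per gene and barcode, not normalized, from Cell Ranger (7.0.1 in the file headers, 6.0.1 in the submitters' processing notes) against their NCBI+TruSeq transcriptome. Barcodes with at least 500 UMIs and 330 to 8950 genes were kept (12903 and 15936). No doublet caller was run. The gates exclude barcodes with both neuronal and glial markers above their limits.

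UMIs were summed per library and gate. Sums were scaled by TMM and tested in edgeR 4.0.16 (R 4.3.3; filterByExpr, glmQLFit, glmQLFTest) with library as a block, since both sums of a library come from the same reaction. Gate genes were left out. With that block, gates or classes were compared within each library. Genes of neurons against glia had 1 residual degree of freedom and an unbounded prior, so the spread of single genes was not estimated there. The p-values and standard errors of that fit rest on a spread shared over all genes. The fit of classes and glia had 5 residual and 5.89 prior degrees of freedom. It estimated a single spread per gene over all classes and glia. Its p-values and standard errors therefore do not measure how far a single class varied between the libraries. On simulated counts, 87% of 2-fold and 100% of 4-fold changes of neurons against glia were recovered (16785 genes, 3.11% of calls false), and 99% and 100% for the classes (14749 genes, 7.87% false). The simulation gave all genes the same spread and changed only a small share of genes, none of low level. Its rates therefore do not cover genes as low as STX11 and SNAP47. DESeq2 1.42.0 was an alternative. Thinning, intervals and figures used Python 3.11.15.

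The 13 genes, the lists, gates and tests were chosen with earlier results of these data known. Every gene of the 13 is named. Full values are given for each role group's gene of highest neuronal level and of largest and smallest change, for genes called higher in glia and for the 3 largest calls of each class. The relatives and the division of SLC17A6 neurons were added after values were seen. RefSeq names come from UKy_Petmar_22M1.pri1.0, another assembly. Microglial genes were not analysed here, and the result for another neuronal marker is not reported here.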

Additional observations from a re-analysis of the deposited data

How the results depend on the processing

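The calls of SYT7, PCLO, SYT13 and RAB30 between neurons and glia kept their direction and passed under every alternative with a test. Thinning each barcode to 1000 UMIs weighted barcodes equally and left fewer UMIs, 64000 and 253000 in the glia of replicates 1 and 2. Barcodes under 1000 UMIs dropped out. Over both libraries this left 18454 of 19049 neurons, 9308 of 9827 GAD1 neurons and all 317 glia. Of the 13 genes, thinning gave 5 higher and 1 lower in neurons against 3 and 2, with STX5 at -0.29. It also turned VAMP7 (0.64) and STX8 (0.25). Of all genes, 1154 were lower in neurons against 2675. Of the 13 genes, shares of barcodes with a UMI were higher in neurons in both libraries for 8 after thinning and 4 before it. They were higher in glia in both libraries for 2 after thinning and 7 before it. These shares were not counted over all genes, so no background stands beside them. In the classes, thinning called 660 genes for GAD1 against 1225, 1488 against 2238 for SLC17A6, 664 against 1003 for SLC32A1 and 1373 against 2089 for SLC5A7. Of the 13 genes it called 0 against 1 in SLC32A1 neurons and 1 against 0 in SLC6A5 neurons. A neuron gate of 1 UMI called 544 genes for GAD1, 1459 for SLC17A6, 411 for SLC32A1 and 1114 for SLC5A7, with 1 of the 13 in SLC17A6 neurons and 0 in SLC32A1 neurons. The cause of these changes was not tested. The median log2 fold change of all genes between neurons and glia was 0.22, 0.20 with RLE scaling, 0.53 without a filter on low counts and 0.54 after thinning. With glia set against the mean of the neuron classes, 3186 of 15253 genes were higher in neurons, against 3434 of 16735. Without the library as a replicate block, the 13 genes kept their 3 higher and 2 lower calls. Of the genes named, that fit lost only CPLX4 in SLC6A5 neurons (adjusted p = 0.0572, edgeR). Without the block, the adjusted p of SYT7 was 7.04e-05 and that of RAB30 was 0.000447. Minimums of 50 and 200 barcodes took the same number of genes, 13. Glial depth limits STX11 and SNAP47, with at most 6 glial UMIs over both libraries.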

Other observations

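Barcodes with RCVRN as the only gene at 2 UMIs or more among RCVRN, SLC5A7, SLC6A5 and SLC17A6 were too few for a class. Barcodes with at least 1 UMI of RCVRN were therefore summed if they met the GLUL and HES1 limits of the neuron gate. Gated glia and other barcodes beyond those limits were left out. The sum held 82 and 114 barcodes of replicates 1 and 2 and is a description added after the data were seen. STXBP4 was at 140 and 107 CPM there, CPLX3 at 76.2 and 131 CPM and CPLX4 at 98.9 and 206 CPM. SYT7 was at 540 and 417 CPM, PCLO at 484 and 227 CPM and CPLX1 at 3786 and 2514 CPM. A UMI of CPLX3 was in only 14.6% and 20.2% of these barcodes, so the sum mixes barcodes with and without it.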
